A study of Bubalus bubalis with 6 samples.

Results

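A set of 39 genes whose proteins build or attach to the Z-disc, the M-band and the giant protein titin was followed in water buffalo (Bubalus bubalis) muscle stem cells (MuSCs) before and after differentiation. The genes were chosen by symbol from what their proteins are known to do, at a time when earlier results of these data were known. Of the 39, 38 were listed by symbol in the deposited gene table, and all 38 passed the minimum of 10 counts in total, out of 15576 genes tested and 24616 listed. TTN, the gene of titin, was not analysed here, since no row carries that symbol. RNA-seq of polyadenylated RNA covered 3 samples kept proliferating in growth medium (GM) and 3 samples switched to a low-serum differentiation medium (DM). All 6 came from primary cells of fetal longissimus muscle, and no genetic change or added agent is named for any of them. The labels name neither the sex, the number of fetuses, the time in DM nor whether each sample was a culture of its own, so p-values measure the spread between these samples, which may be technical. The question is how the genes of the sarcomere's anchoring structures differed between the proliferating and the differentiating state.

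The sarcomere is the contractile unit of striated muscle. At its borders the Z-disc cross-links the actin-containing thin filaments through alpha-actinin and a dense set of LIM, PDZ and filamin-binding proteins, and at its centre the M-band holds the myosin-containing thick filaments in register. Titin runs from the Z-disc to the M-band as a molecular spring to which many of the proteins described here bind, and myoblasts assemble these structures as they fuse into myotubes.

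Counts on genes lay between 35615864 and 40305237 per sample. Levels are given as CPM, which are counts scaled to a common library size with the TMM factors of edgeR, a correction for library composition. Levels of different genes are compared only after division by gene length. A gene was called where edgeR's quasi-likelihood test gave an absolute log2 fold change above 1 and a Benjamini-Hochberg adjusted p under 0.05 over all tested genes. The spread between replicates exceeded sampling noise, for which a chi-square divided by its degrees of freedom would be near 1. That value was 6.22 to 11.7 for pairs without DM replicate 3 and 40.5 to 41.4 for pairs with it. Myoblast genes were present in all samples, among them the intermediate filament gene DES at 2274 ± 103 CPM in GM and 2051 ± 323 CPM in DM (SD, n = 3). MYOG, the myogenic factor that marks entry into differentiation, rose from 52.3, 39.9 and 66.6 CPM in GM replicates to 161, 185 and 155 CPM in DM replicates. MYF5, a factor of proliferating myoblasts, fell from 143 ± 6.38 to 22.0 ± 3.34 CPM. ITGA7, the integrin of myoblasts and muscle fibres, fell by 1.96 on the log2 scale. Over 8 myoblast genes the median log2 fold change was -0.57, 1 was called higher and 2 lower, and their summed level was 3148 to 3404 CPM in GM and 2455 to 2948 CPM in DM. PAX7, CDH15 and NCAM1 had log2 fold changes of -0.92, -0.53 and -0.60, with an adjusted p under 0.05 in edgeR but under the fold change threshold. MYOD1 went the other way, from 30.6, 30.8 and 36.1 CPM in GM replicates to 67.2, 75.0 and 39.3 CPM in DM replicates. Its log2 fold change of 0.90 (edgeR adjusted p = 0.00202) was also under the threshold. In bulk RNA, more muscle cells in a culture and more RNA of a gene per muscle cell cannot be told apart.

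Of the 38 genes, 31 were called, 29 higher and 2 lower in DM. Among all tested genes 25.3% were called, 15.0% higher and 10.3% lower. The median log2 fold change was 2.82 over the 38 genes and 0.03 over all tested genes. The 2 called lower were FLNC and XIRP1, both coding for actin-binding partners at the Z-disc. Of the 7 that were not called, OBSL1 and SYNPO2 were higher and PDLIM5, SYNPO2L, NEXN and FHL3 lower by less than 2-fold with an adjusted p under 0.05 in edgeR. With no minimum fold change 37 of the 38 genes had an adjusted p under 0.05 in edgeR, where 63.0% of all tested genes had. The last, NEBL, had an adjusted p of 0.258 in edgeR and was the only gene of the 38 whose GM and DM samples overlapped. Samples of the 2 groups did not overlap for 37 of 38 genes, where 68.8% of all tested genes did not.

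**Figure D1:**
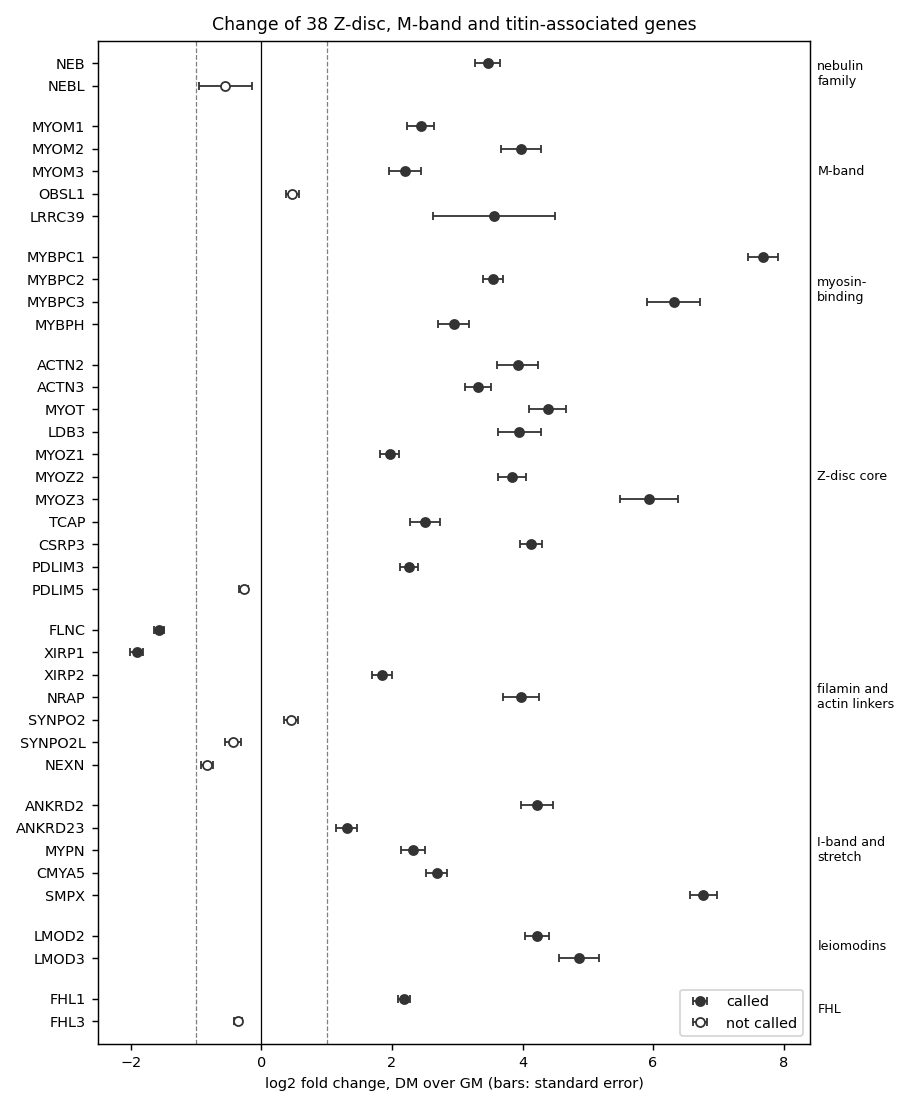
Log2 fold change of DM over GM for each of the 38 genes (x axis) with its standard error as a bar, grouped by role (right). Filled points are genes called by edgeR, and dashed lines mark a log2 fold change of 1 in either direction. FLNC and XIRP1 are the only filled points left of 0, while MYBPC1 lies farthest right at 7.68.

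Medians differed among the roles. All 4 myosin-binding genes were called higher, with a median log2 fold change of 4.93, and so were both leiomodins, with 4.54. Of 11 Z-disc core genes 10 were called higher, with a median of 3.84. Of 5 M-band genes 4 were called higher, with a median of 2.44, and all 5 genes of the titin spring and of stretch sensing were called higher, with 2.69. The 7 genes of filamins and actin linkers split, with 2 called higher, 2 called lower and 3 not called, and their median was -0.43. Of the nebulin genes NEB was called and NEBL was not, with a median of 1.46, and of the FHL genes FHL1 was called and FHL3 was not, with 0.92. Differences between these groups were not tested.

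The myosin-binding genes included the largest rise of the 38. MYBPC1, coding for the slow skeletal form of myosin-binding protein C, held 3, 6 and 5 counts in GM replicates 1, 2 and 3 and 817, 1037 and 766 counts in DM replicates. It was thus close to undetected in GM and far above that in every DM sample. Its log2 fold change was 7.68 (SE, the standard error, 0.23, edgeR adjusted p = 2.62e-09). The ratio of summed counts, scaled for library size, was 211, with a 95% interval of 125 to 386 that covers counting error only. MYBPC3, the form known from the heart, had 9, 1 and 2 counts in GM and 238, 299 and 342 in DM. All DM samples stood above all GM samples, and the ratio of summed counts was 82.5 (47.0 to 160, counting error only). Its log2 fold change was 6.32, and 7.63 without GM replicate 1, which held 9 of the 12 GM counts. MYBPC2, the fast skeletal form, went from 8.27, 4.83 and 7.17 CPM to 79.0, 78.2 and 80.1 CPM, a log2 fold change of 3.55. Its DM samples were nearly equal, and GM replicate 2 was the lowest of the 6. MYBPH, a shorter relative that also binds the thick filament, rose from 23.9, 13.1 and 25.5 CPM to 136, 139 and 207 CPM, with 2.94. Here DM replicate 3 was the highest sample.

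At the M-band, the myomesins cross-link neighbouring thick filaments. MYOM1 rose from 10.6, 8.24 and 9.79 CPM to 37.7, 47.4 and 70.4 CPM, a log2 fold change of 2.44 (SE 0.20). MYOM2, the form of fast adult fibres, rose from 18.6, 7.60 and 19.2 CPM to 199, 206 and 308 CPM, with a log2 fold change of 3.98 (SE 0.31). MYOM3 rose from 20.1, 16.6 and 25.0 CPM to 72.1, 74.1 and 137 CPM, with 2.20 (SE 0.24). For all 3 myomesins GM replicate 2 was the lowest and DM replicate 3 the highest sample, and no GM sample reached a DM sample. OBSL1, an obscurin relative that binds titin and myomesin and is also active outside muscle, was at 108, 106 and 105 CPM in GM and 134, 136 and 174 CPM in DM. Its log2 fold change of 0.48 (SE 0.10, edgeR adjusted p = 0.00129) stayed under the threshold, with the groups apart and DM replicate 3 well above the other DM samples. LRRC39, a leucine-rich repeat protein of the M-band, was called higher from few counts, 1, 0 and 1 in GM and 4, 7 and 14 in DM. Its ratio of summed counts was 14.1, with a 95% counting interval of 3.51 to 123. The interval of LRRC39 overlaps TRMT13 on the opposite strand, which had 666 to 752 counts in GM and 539 to 769 in DM, and the sources do not state whether counting used strand.

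Among the core genes of the Z-disc, the sarcomeric alpha-actinins tie thin filaments of adjoining sarcomeres together. ACTN2 rose from 16.1, 6.30 and 14.9 CPM in GM to 152, 160 and 253 CPM in DM, a log2 fold change of 3.92 (SE 0.31, edgeR adjusted p = 1.47e-06). ACTN3, the form of fast fibres, rose from 18.9, 11.1 and 19.4 CPM to 150.0, 145 and 196 CPM, with 3.31 (SE 0.20). The groups lay far apart for both, with GM replicate 2 lowest and DM replicate 3 highest. MYOT, coding for myotilin, which binds alpha-actinin and filamin C, rose from 3.45, 1.27 and 3.48 CPM to 44.9, 57.1 and 68.6 CPM, with a log2 fold change of 4.38. LDB3, a PDZ and LIM protein of the Z-disc, rose from 1.93, 0.721 and 1.95 CPM to 18.7, 19.0 and 33.3 CPM, with 3.95. As with the alpha-actinins, GM replicate 2 was the lowest and DM replicate 3 the highest for both genes. CSRP3, coding for muscle LIM protein, rose from 1.18, 1.11 and 1.40 CPM to 17.7, 21.9 and 24.9 CPM, with 4.13. TCAP, coding for telethonin, which caps the end of titin in the Z-disc, rose from 1.66, 1.80 and 1.95 CPM to 9.62, 7.46 and 13.7 CPM, with 2.51. Each was low and even in GM and clearly higher in every DM sample.

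The myozenins, or calsarcins, link alpha-actinin to the phosphatase calcineurin, and the 3 genes rose by unequal amounts. MYOZ1 rose from 6.92, 7.21 and 9.18 CPM to 26.8, 27.8 and 36.2 CPM, a log2 fold change of 1.96 (SE 0.15). MYOZ2 rose from 4.68, 2.48 and 3.56 CPM to 39.4, 54.1 and 60.1 CPM, with 3.84 (SE 0.22). MYOZ3 had 2, 2 and 3 counts in GM and 89, 115 and 201 counts in DM, a ratio of summed counts of 65.2 (31.4 to 163, counting error only). MYOZ3 was near the limit of detection in GM, whereas MYOZ1 and MYOZ2 were already measurable there. The 2 PDZ and LIM genes of the group differed in direction. PDLIM3, whose protein binds alpha-actinin at the Z-disc, rose from 20.8, 15.4 and 22.5 CPM to 80.5, 94.5 and 105 CPM, with a log2 fold change of 2.26. PDLIM5, which codes for the related enigma homolog protein, was at 68.6, 63.3 and 63.2 CPM in GM and 52.4, 52.2 and 56.9 CPM in DM, with a log2 fold change of -0.27 (edgeR adjusted p = 0.00562). It was the only Z-disc core gene that was not called, although its GM samples all lay above its DM samples.

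FLNC and XIRP1 went against the other genes. FLNC (chromosome 4, 93609408 to 93636607 in the cattle coordinates of the deposited table, which names no build) codes for filamin C, the muscle filamin that cross-links actin at the Z-disc and at the membrane. It was at 1739, 1637 and 1701 CPM in GM and 627, 580.0 and 510.2 CPM in DM. The 3 GM samples lay close together and all far above the DM samples, with a log2 fold change of -1.56 (SE 0.08, edgeR adjusted p = 5.91e-08). XIRP1 (chromosome 22, 12549676 to 12558895), coding for Xin, an actin-binding protein that binds filamin C, was at 50.4, 49.0 and 56.1 CPM in GM and 12.4, 13.4 and 15.6 CPM in DM. It fell by 1.91 on the log2 scale (SE 0.10, edgeR adjusted p = 6.67e-08), with no overlap. XIRP2, the other Xin gene, moved the opposite way, from 32.4, 25.9 and 37.4 CPM to 90.7, 117 and 136 CPM, a log2 fold change of 1.85 (edgeR adjusted p = 2.39e-06). NRAP, an anchoring protein of growing myofibrils, rose from 2.29, 1.15 and 2.27 CPM to 25.0, 23.8 and 40.6 CPM, with 3.97. The interval of NRAP overlaps HABP2 on the opposite strand, which had at most 23 counts in any sample.

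The remaining linkers stayed under the fold change threshold. NEXN, coding for the actin-binding protein nexilin, was at 365, 345 and 385 CPM in GM and 180, 210.1 and 226 CPM in DM. All GM samples were above all DM samples, but its log2 fold change of -0.83 (SE 0.09, edgeR adjusted p = 1.03e-05) did not reach the threshold. SYNPO2, coding for myopodin, was at 86.6, 71.0 and 92.8 CPM in GM and 106, 107 and 130 CPM in DM, with a log2 fold change of 0.46. SYNPO2L, its relative at the Z-disc, was at 48.2, 50.7 and 50.5 CPM in GM and 30.0, 36.6 and 44.0 CPM in DM, with -0.43. The 2 synaptopodin relatives thus differed in sign, each without overlap of the groups and each under the fold change threshold.

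**Figure D2:**
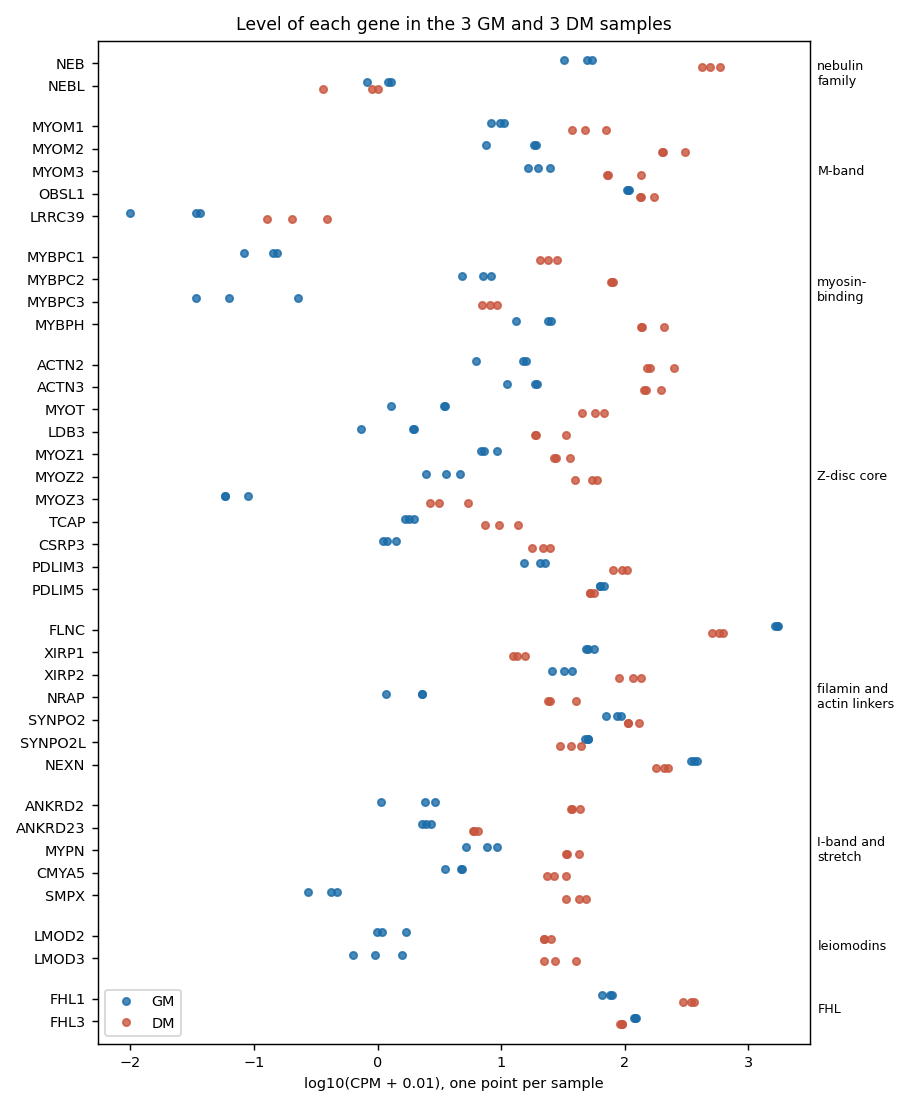
Level of each of the 38 genes in every sample, as log10 of CPM after a small constant was added, with blue points for the 3 GM and red points for the 3 DM samples. Only NEBL has overlapping colours, and FLNC, XIRP1, NEXN and FHL3 are among the few whose blue points lie to the right of the red ones.

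Genes of the titin spring region and of the response to stretch were higher in DM without exception. SMPX (chromosome X, 128771954 to 128825159), a small stretch-responsive muscle protein, was at 0.458, 0.409 and 0.264 CPM in GM and 33.6, 42.7 and 48.9 CPM in DM. It was barely measured in all GM samples and far higher in every DM sample, with a log2 fold change of 6.77 (SE 0.21, edgeR adjusted p = 3.02e-09). ANKRD2 codes for an ankyrin repeat protein that binds the elastic part of titin, and rose from 2.41, 1.06 and 2.90 CPM to 37.9, 43.3 and 36.9 CPM, with 4.22. ANKRD23, of the same protein family, rose from 2.70, 2.28 and 2.48 CPM to 5.92, 6.01 and 6.51 CPM, with 1.30 (SE 0.16). ANKRD23 had the smallest called rise of the 38 genes and an even level within each group, and its call was the only one of the 31 lost in a test for more than a fold change of 2. MYPN, coding for myopalladin, which links nebulin, alpha-actinin and the ankyrin repeat proteins, rose from 7.62, 5.24 and 9.23 CPM to 34.4, 33.4 and 42.5 CPM, with 2.32. CMYA5, coding for the large titin-binding protein myospryn, rose from 4.77, 3.51 and 4.72 CPM to 23.4, 26.9 and 33.5 CPM, with 2.69. Both were higher in each DM sample than in any GM sample.

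Along and at the ends of the thin filament, NEB (chromosome 2, 44546002 to 44754701), coding for nebulin, rose from 54.6, 32.3 and 50.03 CPM to 424, 496 and 595 CPM. Every DM sample was several times above every GM sample, with a log2 fold change of 3.47 (SE 0.19, edgeR adjusted p = 9.63e-08). NEBL, coding for nebulette, the shorter relative known from the heart, had 50, 34 and 48 counts in GM and 30, 13 and 37 counts in DM, with a log2 fold change of -0.55 (SE 0.40). Its samples overlapped and no difference was detectable at this depth. The leiomodins start actin filaments and act at their pointed ends. LMOD2 rose from 1.09, 0.986 and 1.69 CPM to 22.1, 22.4 and 25.4 CPM, with a log2 fold change of 4.22, and LMOD3, the form whose loss causes nemaline myopathy, rose from 0.940, 0.625 and 1.56 CPM to 22.3, 27.2 and 40.7 CPM, with 4.86. The DM levels of LMOD2 were even, while those of LMOD3 spread upward to DM replicate 3.

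FHL1 and FHL3 code for small LIM-domain scaffold proteins. FHL1 (chromosome X, 19777799 to 19820952), which also binds titin, rose from 78.8, 65.8 and 76.6 CPM to 300, 342 and 368 CPM, with a log2 fold change of 2.19 (SE 0.09, edgeR adjusted p = 2.12e-08). FHL3 was at 118, 123 and 121 CPM in GM and 95.7, 91.4 and 96.0 CPM in DM, with -0.35 (edgeR adjusted p = 0.000328). FHL3 was steady within each group, and its small difference did not reach the fold change threshold.

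Since the genes differ in length from 793 bases for SMPX to 20949 bases for NEB, their levels were ranked as CPM per kilobase. In GM the order was led by FLNC at 203.5 ± 6.21 CPM per kilobase (SD, n = 3), followed by NEXN at 167 ± 9.31, FHL3 at 75.1 ± 1.43 and FHL1 at 35.5 ± 3.35. These 4 were separated by more than their spread. In DM the order was led by FHL1 at 162 ± 16.5 CPM per kilobase, followed by NEXN at 94.1 ± 10.7 and MYBPH at 87.8 ± 22.0, which did not differ beyond their spread. ACTN2 at 71.7 ± 21.3, FLNC at 68.8 ± 7.06, PDLIM3 at 62.1 ± 8.30 and ACTN3 at 60.3 ± 10.5 came next and also lay within each other's spread. Between GM and DM, SMPX went from rank 30 to rank 9 of the 38 genes and XIRP1 from rank 11 to rank 34. On the CPM scale, 17 of the 38 genes had a mean of at least 10 CPM in GM and 33 in DM. FLNC alone held much of the group's counts in GM. The 38 genes took 0.304, 0.277 and 0.303% of gene counts in GM replicates and 0.318, 0.352 and 0.413% in DM replicates. Without FLNC these shares were 0.124, 0.108 and 0.127% in GM and 0.259, 0.295 and 0.363% in DM.

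The replicates of each group ranked alike over many of these genes. DM replicate 3 was the highest DM sample for 35 of 38 genes (92.1%), compared with 37.7% of all tested genes and 42.2% of all genes called higher. GM replicate 2 was the lowest GM sample for 30 of 38 genes (78.9%), compared with 35.2% of all tested genes. The median ratio of DM replicate 3 to the mean of the other DM samples was 1.29 over the 38 genes and 0.999 over all tested genes. For GM replicate 2 the corresponding ratio was 0.738, and 0.999 over all tested genes. MYBPC1 and ANKRD2, both called higher, and FLNC did not have their highest DM value in replicate 3. The order was not particular to the 38 genes. Many thick and thin filament genes outside the 38 had it too, among them MYH7, MYLPF and TNNC1. MYH7 was at 31.8, 17.1 and 31.2 CPM in GM replicates and 312, 340 and 539 CPM in DM replicates. The filament genes MYH1 and TNNT2 did not have their highest DM value in replicate 3. Without DM replicate 3 or without GM replicate 2, 31 of the 38 genes were still called, and their median log2 fold change was 2.64 or 2.63.

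**Figure D3:**
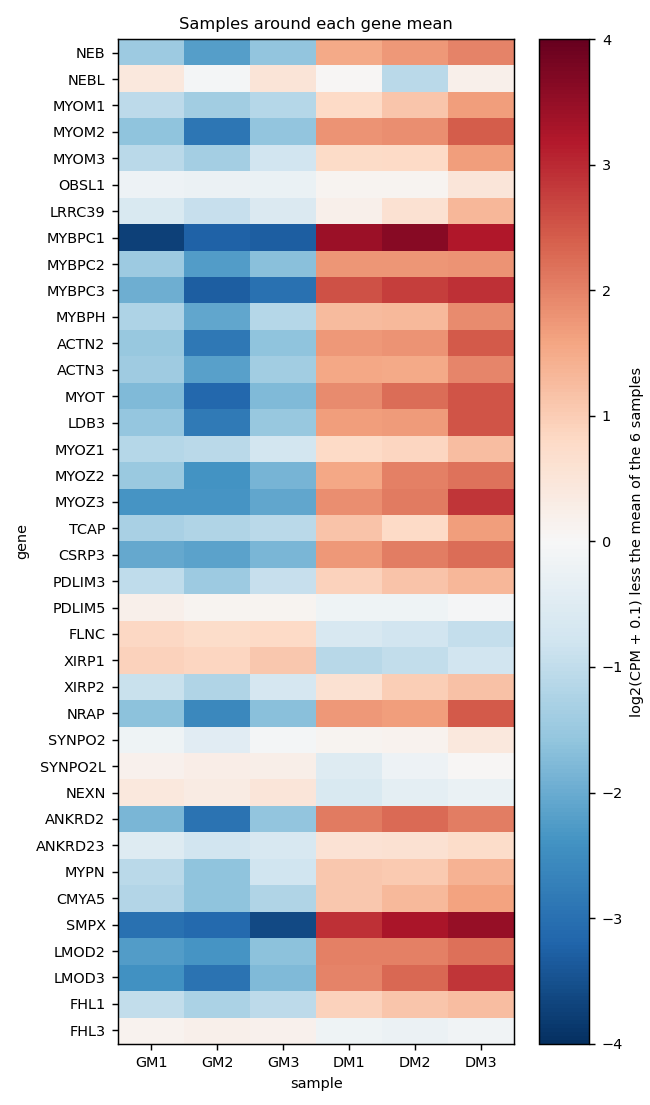
Each sample's log2(CPM + 0.1) less the mean of the 6 samples, for the 38 genes (rows) in the 3 GM and 3 DM samples (columns), red above and blue below the gene's mean. Columns GM2 and DM3 carry the strongest blue and red for most genes, with medians over the genes of -1.61 and 1.68.

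Markers of other cell types were measured in the same samples. The summed level of 7 fibroblast genes went from 24778 to 24991 CPM in GM to between 76747 and 96617 CPM in DM, and 4 of the 6 tested were called, all higher. Most of the sum came from COL1A1, at 15288 ± 97.9 CPM in GM and 44329 ± 2747 CPM in DM, and COL3A1, at 8299 ± 191 and 39253 ± 7036 CPM. PDGFRA and DPT had log2 fold changes of 0.58 and 0.96 and were not called, and TCF21 was too low to test. DM replicate 3 had the lowest sum of the DM samples, unlike its place for most sarcomere genes. Of 6 cardiomyocyte genes the summed level was 3.27 to 6.44 CPM in GM and 52.5 to 89.6 CPM in DM, most of it from MYH6, with NPPB and MYL7 at 0 in all samples. Both tested genes, MYH6 and TNNI3, were called higher. TNNI3 had few counts, 0, 2 and 5 in GM replicates and 14, 6 and 69 in DM replicates, most of them in DM replicate 3. Smooth muscle genes summed to 4296 to 4476 CPM in GM and 3366 to 3840 CPM in DM, with 1 of 7 called higher and 1 lower. The sums were 6.91 to 8.34 CPM in GM and 7.24 to 8.76 CPM in DM for adipocyte genes, and 3.88 to 4.62 and 5.15 to 6.13 CPM for endothelial genes. Calls within these lists went both ways. Of 6 adipocyte genes CIDEC and FABP4 were called higher and PPARG lower, from 4.33 ± 0.408 to 0.319 ± 0.206 CPM, and of 5 tested endothelial genes TEK was called higher and CDH5 and VWF lower. Leukocyte genes summed to 6.15 to 7.96 CPM in GM and 7.16 to 13.5 CPM in DM, with CD14 called higher, from 1.09 ± 0.203 to 7.40 ± 2.57 CPM, and CD68 lower. Schwann cell genes summed to between 1.13 and 2.16 CPM in all 6 samples, and neither of the 2 tested was called. The part of the cell types whose sums moved in the results for the 38 genes was not tested.

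Many of the 38 genes have relatives that are used outside striated muscle. A list of 21 genes held such relatives and a few other cytoskeletal genes, among them NES, which codes for the intermediate filament protein nestin, and 17 could be tested. Of these, 3 were called higher (ANKRD1, SYNPO and LMOD1) and 3 lower (FHL2, NES and ACTN4), 6 of 17 in all, and the median log2 fold change of the 17 was -0.03. Of the 6 calls 2, those of ANKRD1 and FHL2, held in a test for more than a fold change of 2. ANKRD1, a stretch-induced ankyrin repeat gene, rose from 96.2 ± 17.3 to 305 ± 31.8 CPM (SD, n = 3), a log2 fold change of 1.67. FHL2 fell by 1.73 on the log2 scale, from 241 ± 7.92 to 72.6 ± 7.35 CPM. The broadly used ACTN1 was at 784 ± 16.7 CPM in GM and 830.3 ± 71.9 CPM in DM, with 0.08, and its samples overlapped. ACTN4 fell by 1.06, from 1300 ± 24.5 to 624 ± 58.0 CPM. FLNA had a log2 fold change of -0.34, PDLIM7 of 0.26 and PDLIM4 of 0.66, none of them called.

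Shares within a family show how the balance among relatives shifted inside each sample. Each share is a gene's part of the family's summed CPM per kilobase, so a rise of 1 member lowers the others. Over 13 families, 37 of 39 shares did not overlap between GM and DM, with the smallest p that 3 samples against 3 allow (exact permutation test, two-sided, p = 0.1, adjusted p = 0.105), so none could pass 0.05. Shares of a family depend on each other, and shares of other families were not counted. In level, 68.8% of all tested genes did not overlap. Among the FHL genes, FHL1 went from 11.7 ± 1.21 to 58.0 ± 2.43% while FHL2 went from 63.4 ± 1.04 to 20.8 ± 1.38%. Among alpha-actinins, ACTN2 went from 0.675 ± 0.289 to 12.0 ± 2.58% and ACTN3 from 0.866 ± 0.246 to 10.2 ± 0.933%. ACTN4 went from 66.8 ± 0.667 to 38.05 ± 1.46% of that family. The alpha-actinins of the sarcomere were thus still the smaller part in DM. Balance shifted also among genes that rose together. MYOM2 went from 32.2 ± 7.72 to 62.5 ± 2.42% of the myomesins, MYOM3 from 50.01 ± 5.63 to 26.4 ± 2.23%. MYOZ2 went from 35.9 ± 8.43 to 66.5 ± 3.08% of the myozenins, MYOZ1 from 63.9 ± 8.40 to 31.9 ± 3.01%. Among leiomodins, LMOD1 went from 75.8 ± 7.21 to 22.5 ± 4.10%, while LMOD2 went from 13.6 ± 3.22 to 35.5 ± 2.66% and LMOD3 from 10.6 ± 4.09 to 42.0 ± 6.75%. XIRP1 went from 74.7 ± 2.30 to 18.0 ± 1.56% of the Xin genes, so the greater part of that family lay on XIRP1 in GM and on XIRP2 in DM. Among the CSRP genes, CSRP3 went from 0.419 ± 0.0512 to 8.92 ± 1.56%, with CSRP1 at 75.5 ± 0.384 and 53.7 ± 3.12%. Shares of MYBPC2 and NEBL overlapped between the groups, with p = 0.2 and p = 0.3 in the exact permutation test.

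**Figure D4:**
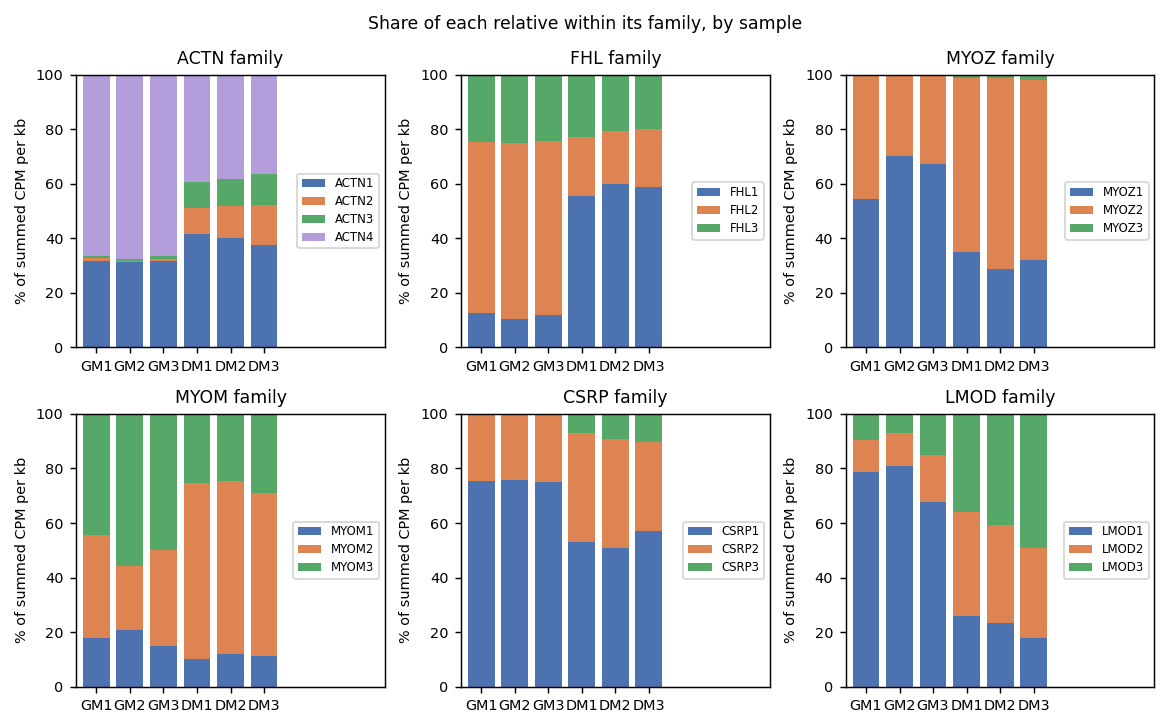
Share of each relative in its family's summed CPM per kilobase (y axis, percent) in the 3 GM and 3 DM samples (x axis), for 6 families, with colours for the genes. In each panel the shares of the 3 GM bars do not overlap those of the 3 DM bars, as for FHL1 at 11.7% in GM and 58.0% in DM. GM bars vary among themselves in the MYOM, MYOZ and LMOD panels, as for MYOM2 at 37.9, 23.4 and 35.3%.

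At the level of annotated transcripts, 46 mRNAs of the 38 genes were tested, and 37 were called, 35 higher and 2 lower, where 25.6% of all tested mRNAs were called, 15.5% higher and 10.1% lower. With no minimum fold change 44 of the 46 had an adjusted p under 0.05 in edgeR, where 64.6% of all tested mRNAs had. Every transcript had the same call as its gene. The transcripts of a gene share reads in the deposited table, so counts of a gene outside a transcript were obtained by subtraction. The 7 genes with several transcripts had 15 of them, and the shares of 11 did not overlap between the groups (exact permutation test, p = 0.1, adjusted p = 0.136). Transcript shares of other genes were not counted, so this has no rate over all genes beside it. The transcripts described here were singled out after their values were seen. For PDLIM5 (chromosome 6, 31337012 to 31567339), known to give long forms with LIM domains and short forms without, counts not on ENSBTAT00000064437 were 11, 3 and 5 in GM and 113, 150 and 178 in DM. This minor part of the gene was higher in all DM samples, by a ratio of 26.2 (95% counting interval 16.5 to 43.9), while the gene as a whole had a log2 fold change of -0.27. The listed transcript held 99.8 ± 0.138% of the gene's counts in GM and 92.4 ± 1.07% in DM. For FHL1, counts not on ENSBTAT00000063425 were 73, 56 and 55 in GM and 808, 974 and 1270 in DM, a ratio of 18.7 (16.1 to 21.8), compared with 4.56-fold for the whole gene. For OBSL1, counts not on ENSBTAT00000038198 were 501, 509 and 488 in GM and 954, 1119 and 1858 in DM, a ratio of 2.96 (2.79 to 3.14). The share of that transcript went from 88.3 ± 0.545 to 75.8 ± 4.13%. The intervals of these ratios cover counting error only. They leave out the spread between replicates, and DM replicate 3 of OBSL1 stood well above the other DM samples. NEB had a shorter transcript, ENSBTAT00000055345, whose share went from 51.9 ± 1.84 to 42.2 ± 2.19%. In each of these genes a larger part of the counts lay outside that transcript in DM than in GM. Another transcript of the same gene took a larger share in DM for 3 of them. These were ENSBTAT00000024641 of FHL1, from 94.4 ± 0.473 to 98.3 ± 0.261%, ENSBTAT00000017030 of PDLIM5, from 49.8 ± 1.67 to 54.8 ± 1.44%, and ENSBTAT00000060992 of OBSL1, from 93.8 ± 0.715 to 95.7 ± 0.168%. The other genes with several transcripts, LDB3, MYPN and MYOZ1, had all their transcripts called higher, with log2 fold changes between 1.94 and 3.87.

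**Figure D5:**
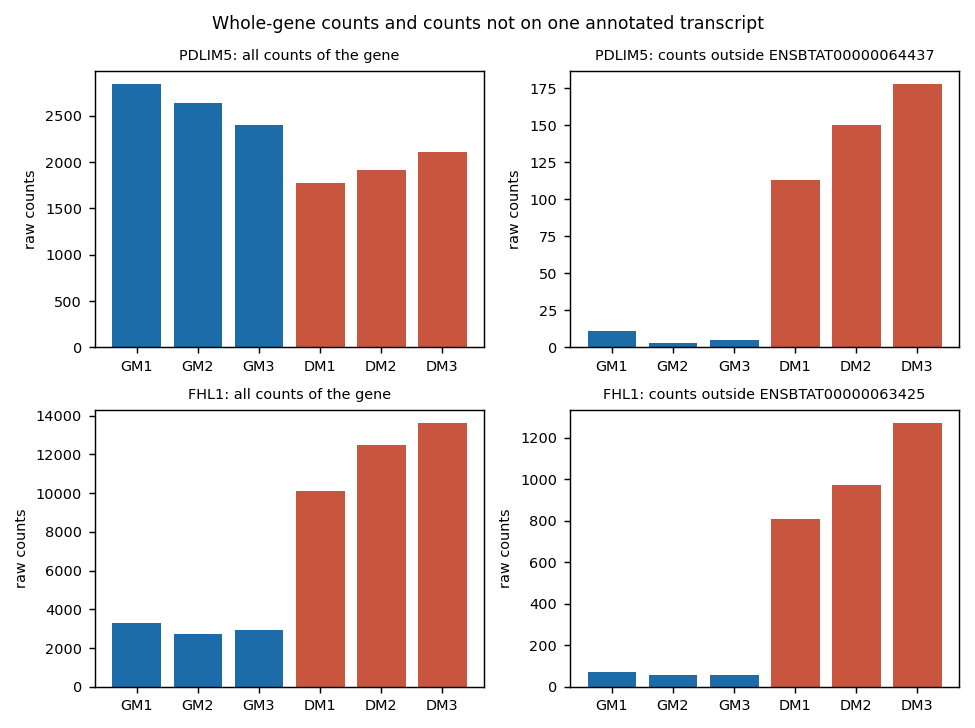
Raw counts (y axis) per sample (x axis) of PDLIM5 and FHL1, for the whole gene (left) and for the counts outside 1 annotated transcript (right), with GM in blue and DM in red. For PDLIM5 the gene's counts are lower in DM, while those outside the transcript go from 3 to 11 in GM to 113 to 178 in DM.

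Other genes of the Z-disc and the M-band, and the filament genes to which these structures attach, were compared with the same fit. Of 26 tested genes of the first kind, which include ANKRD1 again, 16 were called (14 higher, 2 lower) and the median log2 fold change was 1.09. CKM, the muscle creatine kinase that sits at the M-band, rose by 6.32 on the log2 scale, from 1.19 ± 0.537 to 94.9 ± 10.9 CPM (SD, n = 3). CAPN3, a titin-bound protease, rose by 5.47, from 0.338 ± 0.222 to 14.9 ± 4.18 CPM. SPEG and IGFN1, both coding for large muscle proteins with immunoglobulin domains, were the 2 called lower, with log2 fold changes of -1.18 and -1.06, and 13 of the 16 calls (12 higher, 1 lower) were made in the test for more than a fold change of 2, where IGFN1 was not called. Of 22 tested genes of thick and thin filaments, 20 were called, all higher, and the median was 4.26. MYH8, the perinatal myosin heavy chain, went from 2.01 ± 0.798 to 292 ± 59.1 CPM, which is 7.19 on the log2 scale. MYL3, a myosin light chain of slow and cardiac muscle, had 1 count over all GM samples and 231 over the DM samples, a ratio of 260.3 with a 95% counting interval of 46.3 to 10325. TPM1 and TPM2, coding for tropomyosins, had log2 fold changes of 0.999 and 0.92 and were not called. With DESeq2 21 of the 22 filament genes were called, and 18 in the test for more than a fold change of 2. For comparison, the medians of the 38 genes and of the 17 tested relatives and cytoskeletal genes were 2.82 and -0.03.

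MYOZ1 and SYNPO2L lie next to each other on chromosome 28, on the same strand, with 423 bases and no listed gene between them. Their log2 fold changes were 1.96 and -0.43. MYOZ2 and SYNPO2 are likewise neighbours on chromosome 6, on the same strand, 99066 bases apart with no listed gene between, and had log2 fold changes of 3.84 and 0.46. In both pairs the myozenin rose, and the synaptopodin relative stayed under the fold change threshold.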

How the data were processed

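PolyA libraries of 3 GM and 3 DM samples were analysed from the deposited gene and mRNA tables. The authors aligned reads with HISAT2 and deposited raw counts per feature, without normalization. The authors also deposited RPKM values, which scale counts by feature length and library total, and these served only in an alternative filter. The methods name the buffalo genome, while the tables list cattle Ensembl identifiers and coordinates and no build. The submitters' processing notes name Bowtie 0.12.2 and mouse genome builds with no role given, so the reference behind the counts is unresolved, and the counter and its strand setting are not given in the sources used here. How reads were assigned could affect relatives of similar sequence. The authors' own lists of log2 fold changes, p-values and q-values, and the ncRNA table, were not used.

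Counts were analysed with the quasi-likelihood test of edgeR 4.0.16 under R 4.3.3 (TMM, at least 10 counts in total, absolute log2 fold change above 1, Benjamini-Hochberg adjusted p under 0.05), fitted on all 15576 genes or 16352 mRNAs. Ratios of low counts and of counts outside a transcript have exact 95% binomial intervals, which cover counting error only. Family shares were compared with an exact permutation test. Tables were handled with Python 3.11.15, pandas 2.3.3, numpy 2.4.6, scipy 1.17.1 and matplotlib 3.10.9. The fit was tested on simulated data in which 200 features differed 4-fold, and it recovered 199 of these genes and 200 of these mRNAs, with 1 and 2 false calls. The simulation gave all features the same spread between replicates and changed only well-counted features. It therefore does not cover genes with few counts or the wider spread of DM replicate 3.

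Alternatives were DESeq2 1.42.0, library size alone, DESeq2's size factors, other filters, adjusted p alone, glmTreat at a fold change of 2, the replicate number as a block and each sample left out. All 39 genes are named. Of other lists, relatives of a named family and the 2 called genes with the largest change are named, others after their values were seen. The genes and lists were chosen with earlier results of these data known. Promoter motifs were not analysed here, and the values of 1 relative and of the shares in its family are not reported here.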

Additional observations from a re-analysis of the deposited data

How the results depend on the processing

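The 31 calls among the 38 genes were 31 with DESeq2, with other scalings and with no filter, 30 with filterByExpr, which drops LRRC39, and 30 with glmTreat, which tests for more than a fold change of 2 and loses ANKRD23. With the filter on RPKM (1 or more in over 50% of samples), 27 genes were tested, 21 were called, and the median log2 fold change was 2.31 in place of 2.82. That filter removes genes near 0 in GM. With no minimum fold change 37 were called, 31 higher and 6 lower. The 6 calls among 17 relatives became 2 with glmTreat and 13 with no minimum fold change. The 37 mRNA calls became 38 with library size alone, 35 higher and 3 lower. Under the other tools, scalings, filters, the block and left-out samples, all 482 alternative log2 fold changes of the 38 genes kept their direction and call, and the largest shift was that of MYBPC3, from 6.32 to 7.63 without GM replicate 1.

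Leaving out each sample in turn, the 38 genes had 31 calls each time, their mRNAs 37, the relatives 4 to 6, other Z-disc and M-band genes 15 to 16 and filament genes 20 to 22. The median ranged from 2.63 to 2.93 and the shares without overlap from 37 to 39. Relatives had 5 calls without DM replicate 1 and 4 without DM replicate 2. GM and DM samples of the same number did not deviate together (r = -0.00756, -0.0218 and -0.0105). This gave no sign of pairing, but 3 samples per group cannot exclude it, and the labels do not state it. With the replicate block 31 genes, 37 mRNAs, 6 relatives, 16 other Z-disc and M-band genes and 20 filament genes were called.

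Genes with under 10 counts in each GM sample (MYBPC1, MYBPC3, MYOZ3 and LRRC39) have folds limited by counting error. Groups of 3 are too small for a test of single outlying samples.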

Other observations

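The longest gene in the table, listed by the identifier ENSBTAG00000026986 with no symbol (chromosome 2, 18054943 to 18329808, 103346 bases of deposited length), was looked at after the data were seen. It had 85.9, 46.8 and 84.3 CPM in GM and 489, 549 and 724 CPM in DM, a log2 fold change of 3.02 (SE 0.22, edgeR adjusted p = 8.27e-07). As for most of the 38 genes, GM replicate 2 was its lowest and DM replicate 3 its highest sample. No name is assigned to it here.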
